A study of Homo sapiens with 2 samples.

Results

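GREB1 (growth regulating estrogen receptor binding 1) carried 12 of the 12688 regions bound by oestrogen receptor α (ERα) that were listed for T47D cells, a human breast cancer cell line that expresses the receptor. The 12 peaks were chosen by position alone: their centres lie between 11570000 and 11900000 on chromosome 2 of the hg19 build, a window of 330.0 kb around the gene. GREB1 is on the plus strand, and positions are given against 2 of its starts, at 11674242 and at 11680080, which lie 5.84 kb apart. The study compared 1 library of chromatin recovered with the ERα antibody H-20 with 1 input library of DNA that saw no antibody. Both came from T47D cells deprived of steroids for 48 h and then exposed to 17β-estradiol at 10 nM for 45 min. With 1 library of each kind and no cells without estradiol among those analysed here, the values describe occupancy under estradiol, with no replicate error, no test and no measure of a response. The read depth of the libraries is unknown from the list.

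ERα is a nuclear receptor that, when estradiol binds it, occupies DNA mainly at oestrogen response elements, palindromic sequences bound by a receptor dimer. It acts at promoters and, more often, at distal enhancers that can contact promoters through chromatin loops. GREB1 is an early and strongly oestrogen-induced gene of breast cancer cells with response elements in its upstream region, and its protein binds ERα and acts as a cofactor of the receptor. In the gene order of the RefSeq table, PPIAP60 and then E2F6, a repressor of the E2F family, come before GREB1. After GREB1 come NTSR2, a neurotensin receptor, and LPIN1, a phosphatidate phosphatase. That table follows GRCh38 and the peaks hg19, so exons, introns and neighbouring genes were not laid over the peaks, and starts other than those given were not considered.

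The GREB1 peaks formed a compact group, mostly upstream of the first of the 2 starts used here. The highest scores lay at the far end of the group and around the starts. Of the 12 peaks, 10 had their centre before the first start, 1 lay between the starts and 1 lay after the second. The 11 most upstream peaks ran from 11638468 to 11680372, a stretch of 41.9 kb, and peaks covered 16.6% of it. The score, which the authors' peak caller gave to each peak, has no stated scale and was used only to rank peaks within the list. Of the 12 peaks, 4 scored 3100 or more, where 2.12% of the whole list did so. Peaks are named here by the distance of their centre from the first start, negative upstream.

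**Figure D1:**
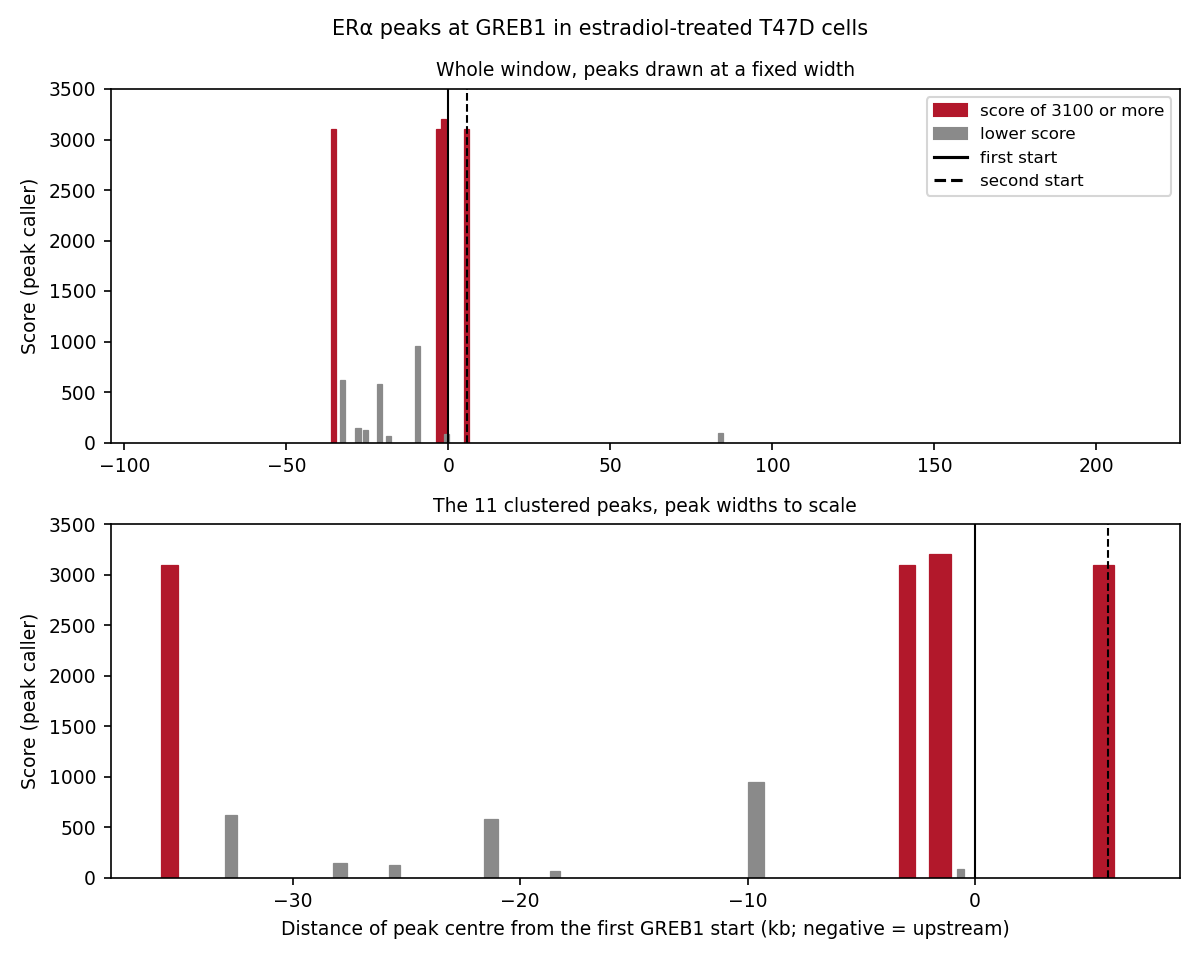
Score of each of the 12 GREB1 peaks (y axis, peak caller units) by distance of its centre from the first start (x axis, kb, negative upstream), over the whole window (upper panel, bars of fixed width) and for the 11 clustered peaks (lower panel, bar widths equal to peak widths). Red bars score 3100 or more; the solid and dashed lines mark the first and second start. The 4 red bars stand at -35.4, -2.98, -1.53 and 5.66 kb.

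The start regions held 3 of the 4 strong peaks. The peak at -1.53 kb ran from 11672240 to 11673178, was 939 bp wide and scored 3203.45. By the listed score this placed it at rank 10 of the list and at rank 1 of the 810 peaks on chromosome 2. Whether it truly stands above the peaks tied at 3100 is uncertain, as the scale of the score is not stated. The downstream edge of the peak at -1.53 kb ended 1064 bp short of the first start. The peak at -2.98 kb ran from 11670911 to 11671614 and was 704 bp wide, with a score of 3100. These neighbours were separated by 625 bp from edge to edge and by 1446.5 bp from centre to centre. No other 2 neighbouring strong peaks of the list were as close, although the next pair, at 1492.5 bp, differed from them by less than the width of a peak.

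The second start lay inside a strong peak, and the first lay inside none. The peak at 5.66 kb ran from 11679430 to 11680372, was 943 bp wide and scored 3100. Its centre was 179.5 bp before the second start. The peak nearest to the first start was the small one at -0.644 kb, from 11673450 to 11673747, whose downstream edge was 495 bp from that start. It was 298 bp wide, and 3.22% of the peaks in the list were narrower. Its score of 87.75 gave it rank 8170. It began 271 bp after the end of the peak at -1.53 kb, the shortest gap between 2 peaks of the window. The 3 peaks upstream of the first start from -2.98 to -0.644 kb together covered 1941 bp of a stretch of 2837 bp. Whether these are separate binding sites or a wider region divided by the peak caller was not tested.

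The fourth strong peak marked the upstream end of the group. It lay at -35.4 kb, from 11638468 to 11639212, was 745 bp wide and scored 3100. The strong peak next to it, at -2.98 kb, was 32.4 kb away, with 6 weaker peaks between them. All 3 peaks at exactly 3100 share rank 35 with 232 others, since 235 peaks of the list carry that score, so the list does not order them among themselves. Whether 3100 is a fixed value set by the caller is not stated and was not tested. The order of these tied peaks against the 34 peaks with higher scores is therefore uncertain as well.

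The weaker peaks between the strong ones were a mixture of moderate and low scores. The peak at -9.64 kb, from 11664263 to 11664948, scored 953.21 and was 686 bp wide, which gave rank 1412. Those at -32.7 and -21.3 kb scored 620.94 and 581.69, at ranks 2075 and 2191. The peaks at -27.9 and -25.5 kb scored 147.86 and 122.48, on either side of the list's median of 128.26. The lowest score at the locus, 67.85, belonged to the peak at -18.4 kb, and 22.9% of the list scored below it. High and low peaks were thus interleaved upstream of the first start, and scores did not decline steadily with distance from the starts. Across the 12 peaks, which share 1 library, the Spearman correlation between score and distance to the nearer start was -0.25.

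Beyond the second start the window was nearly free of listed peaks. The only peak there was at 84.0 kb from the first start, or 78.2 kb from the second, from 11758048 to 11758445. It was 398 bp wide, scored 96.44 at rank 7654, and lay 78.3 kb from its nearest neighbour. The window extends 219.9 kb past the second start, against 104.2 kb before the first, so the upstream excess of 10 peaks against 2 after the first start came from the shorter side. The window's edges did not decide which peaks entered. The first and last members lay 68.8 and 141.8 kb inside the edges, and the nearest peaks outside lay 306.8 kb before the window, with a score of 90.12, and 1295.5 kb after it, with a score of 334.03. On the upstream side 375.0 kb without a listed peak separated the group from its neighbour, and on the downstream side 1436.8 kb did. Absence from the list does not show absence of binding there, as depth and mappability are unknown.

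The scores of the GREB1 peaks covered nearly the whole range of the list while leaning to its upper end. Of the 12 peaks, 7 were among the highest-scoring 25% of the list and 1 among the lowest-scoring 25%. At or above the median score of the list were 8 of 12, where 50% of all peaks are. The median score was 601.3 for the GREB1 peaks and 128.26 for the list. Of the 21 strong peaks on chromosome 2, 4 were at GREB1 and 17 elsewhere, which left 2.13% of the other 798 peaks of the chromosome strong.

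Widths followed scores closely at the locus. The 12 peaks had a median width of 598 bp (298 to 943 bp), against 505 bp in the list and 448.5 bp for the other peaks of chromosome 2. Width and score had a Spearman correlation of 0.94 across the 12 peaks and of 0.63 across the whole list, both descriptions over peaks of 1 library whose width and score come from the same reads. When the list was divided by score into 4 equal parts, 7 of the 12 peaks were wider than the median of their part. The 4 strong peaks, at 704 to 943 bp, were all narrower than the median strong peak of the list (1030 bp). Of 269 strong peaks ordered from the widest, they took places 162, 165, 236 and 252.

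**Figure D2:**
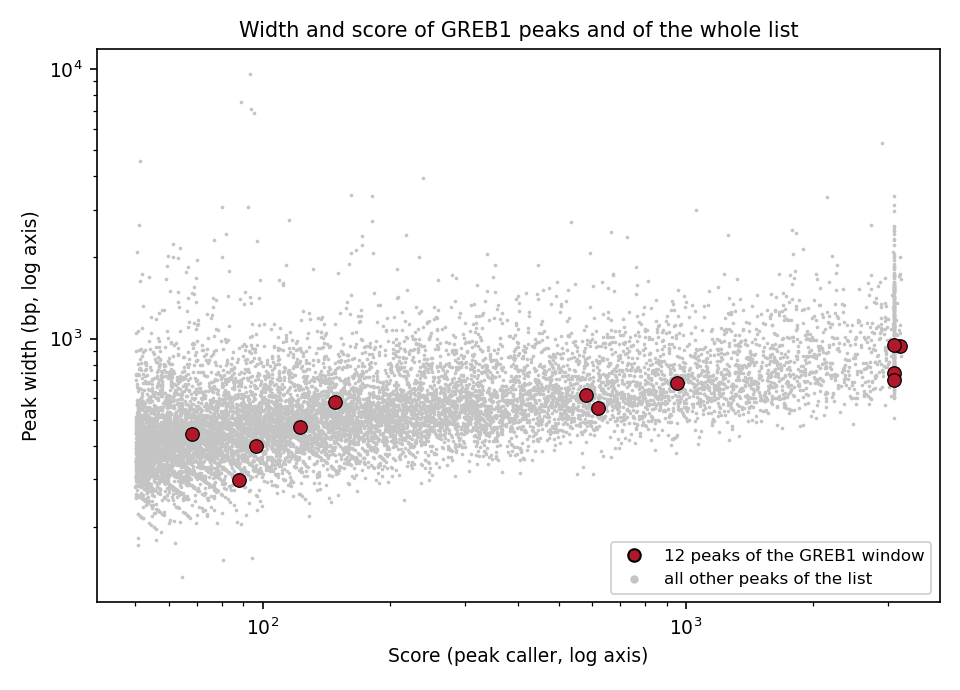
Width (y axis, bp, log axis) against score (x axis, peak caller units, log axis) for the 12 GREB1 peaks (red) and all other peaks of the list (grey). The GREB1 peaks range in width from 298 bp, at a score of 87.75, to 943 bp, at 3100. The 4 at the right end lie in the lower part of the column of strong peaks, whose median width is 1030 bp.

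Neighbouring peaks at GREB1 were a few kilobases apart. Between the 12 centres the median distance was 4237 bp, with a range from 889.5 bp to 78.3 kb, whereas neighbouring centres in the whole list had a median distance of 54.2 kb. Of the 11 distances, 10 were at most 10 kb, and 7 were at most 5 kb; in the list 25.9% and 18.5% of the distances were as short. Another peak centre lay within 10 kb of 11 of the 12 peaks, where 41.3% of all peaks had one. The distances within the group, from 889.5 bp to 8.81 kb, were uneven. The widest opening, 8.25 kb from edge to edge, fell between the peaks at -18.4 and -9.64 kb.

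**Figure D3:**
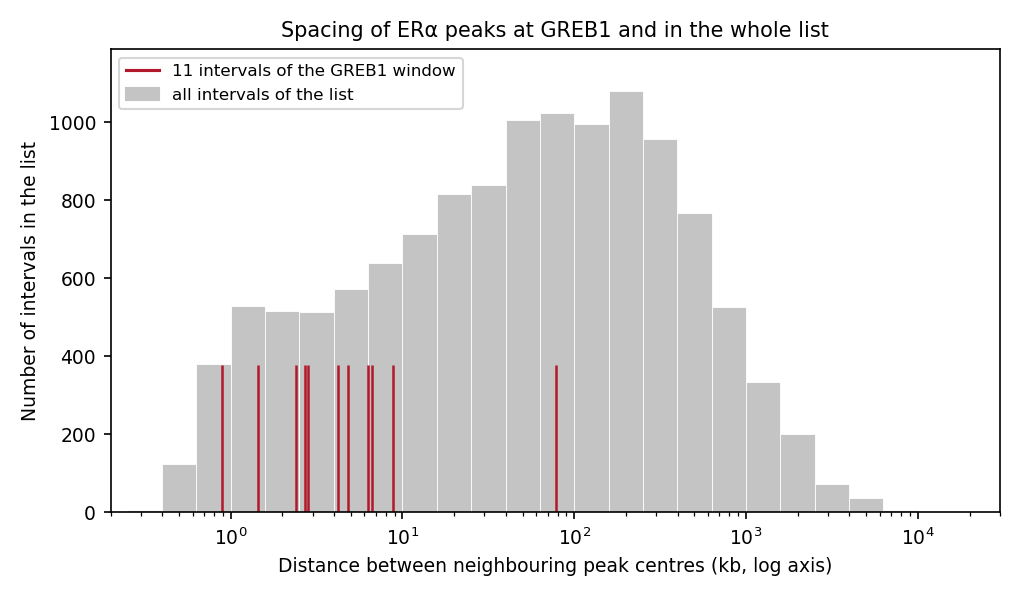
Distances between neighbouring peak centres (x axis, kb, log axis) in the whole list (grey bars, number of intervals on the y axis) with the 11 distances of the GREB1 window as red lines. Of the red lines, 10 lie between 0.89 and 8.81 kb and 1 at 78.3 kb, while the median of the list is 54.2 kb.

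With peaks joined where their edges lie within 10 kb of each other, the GREB1 group held more strong peaks than any other cluster, while several clusters were larger. Joined in this way, the list held 141 clusters of 5 or more peaks. The GREB1 cluster, with 11, was exceeded in number by 5 clusters and equalled by 1, and 0.709% of all peaks were in clusters of that size or larger. Its strong peaks numbered 4. Of the other 140 clusters, 89 held 0 strong peaks, 45 held 1, 5 held 2, and 1, with 6 peaks on chromosome 11 at 101300754 to 101314949, held 3. At GREB1 4 of 11 peaks were strong, against 58 of 900 (6.44%) in those 140 clusters. Without joining of peaks, the 4 strong peaks at GREB1 lay within 41.1 kb from first to last centre, and the shortest such stretch elsewhere in the list was 105.3 kb. The count rests on the joining distance, since with 5 kb the group fell into pieces of at most 2 strong peaks and 7 other clusters had as many or more. With 50 kb, 1 other cluster had as many or more. It also rests on the score, since among the highest-scoring 10% of peaks 5 other clusters held as many as the 4 at GREB1 or more. The group of 11 itself rests on low-scoring peaks. Among peaks at or above the median score of the list, the largest cluster at GREB1 had 4 peaks. Strong peaks per cluster were not counted under that restriction. Above 3100 only 34 peaks of the list remain, and GREB1 keeps 1. The 33 other clusters with as many merely hold the remaining peaks, so this limit cannot compare clusters.

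**Figure D4:**
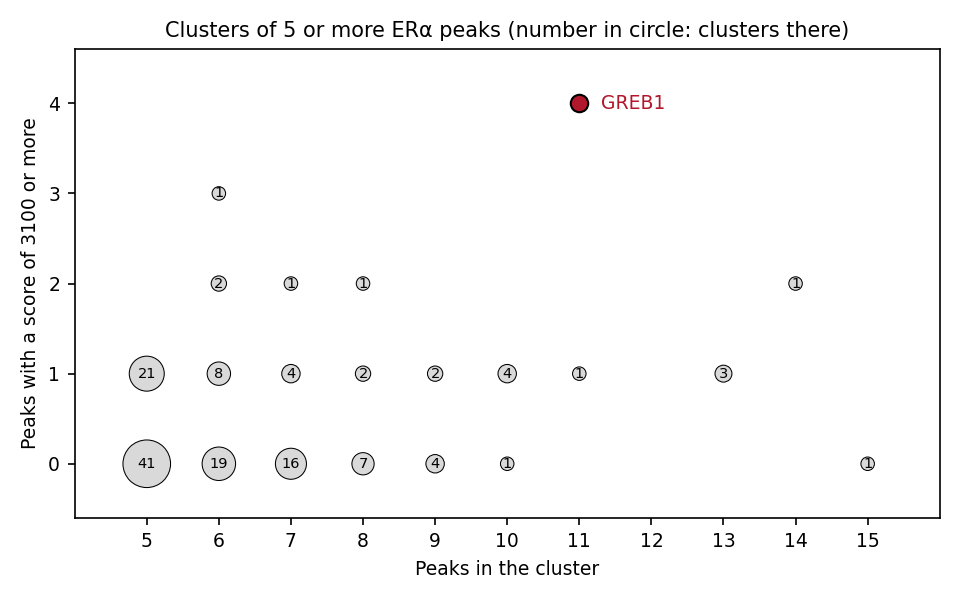
Number of peaks in a cluster (x axis) and number of them scoring 3100 or more (y axis) for the 141 clusters of 5 or more peaks; circles carry the number of clusters at that place, and the red point is GREB1. GREB1, with 11 peaks, stands alone at 4 strong peaks, and the next cluster has 3.

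Among the clusters of 10 or more peaks the GREB1 group had the highest median score. Its median score of 620.94 compared with 119.28 to 456.3 in the 11 remaining clusters with at least 10 peaks, of which 2 had 0 strong peaks, 8 had 1 and 1 had 2. Among all clusters of 5 or more, 18 had a higher median. Peaks covered 16.6% of the GREB1 stretch and 17.0 to 49.5% of the other 11, and among all clusters of 5 or more, 36 had a lower cover. The median peak width in the group was 616 bp, and in the others it ran from 584 to 1311 bp.

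In plain numbers of peaks the GREB1 window ranked less highly. Among 4468 windows of 330.0 kb that held at least 1 peak, 64 (1.43%) held more than its 12 peaks and 16 others held as many, and the median window held 2. With 4 strong peaks it did not hold the most of all stretches of its length, since a stretch of 142.5 kb on chromosome 11 held 5. The 3 strong peaks of the chromosome 11 cluster named above are among them. This stretch was divided by the edges of the tiled windows. Of these, 0 held more than 4 strong peaks, and 1 besides the GREB1 window held 4. That window lay on chromosome 11 at 100980001 to 101310000. When the windows were shifted by 165.0 kb, 1 held more than 4.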

How the data were processed

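The deposited list gives for each peak a start, an end, a name and a score. Per the file, the names carry the MACS prefix, and Bowtie 0.12.9, CASAVA 1.8, HOMER and the build hg19 appear in the submitters' processing notes, without roles. Not given in the sources used here are the scale of the authors' score, the caller's version and threshold, and the handling of duplicate and multiply mapped reads. Only regions passing the caller's threshold are listed, so weaker binding is not seen. Starts were counted from 0, and 1 was added for printing.

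Members were the peaks with a centre in the window. Score ranks with ties take the lowest rank. Strong peaks are those at or above 3100, the score that recurs most often in the list (235 peaks). Clusters join peaks with edges within 10 kb. Windows of 330.0 kb were tiled from the GREB1 window on chromosome 2 and from position 1 elsewhere. Described in full were the strong and 5 highest-ranked members, those nearest to or covering a start and the ends of the cluster. Members and lists were chosen with earlier results of these data known. The counting steps were tested on simulated data. No sequence is printed and the planned search for response elements was not run, since no hg19 sequence was used here and the sequence tables matched 0 promoters of GREB1 by symbol. Alternatives were other windows, score limits, joining distances and merging of peaks. Values were computed with pandas 2.3.3, SciPy 1.17.1 and NumPy 2.4.6 under Python 3.11.15, and drawn with matplotlib 3.10.9.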

Additional observations from a re-analysis of the deposited data

How the results depend on the processing

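Of 50 alternatives for 14 results, 28 left counts and the window rank within 1.5 times and other values identical, 22 moved them and 0 reversed a direction. The rank of the GREB1 window by number of peaks was 65, and 50 among peaks at or above the median score. Restriction to the highest-scoring 25% left 7 peaks with a median width of 704 bp, and restriction to peaks at or above the median score gave 695 bp, a median spacing of 6644 bp, a largest cluster of 4 and 1 peak after the first start. Without the tied score, 1 peak was strong. Merging within 500 bp gave a width of 616 bp and a spacing of 4512 bp, and spacing from edge to edge was 3694 bp. With edges within 5 kb the largest cluster had 6 peaks. The nearest peak to the first start was at -495 bp by its edge and at -1533.5 bp under either score restriction, and the second start was covered (0 bp). Divided at the second start, 1 peak lay after it. The number of other clusters with as many strong peaks as the GREB1 cluster, or more, was 0. It was 7 with edges within 5 kb, 1 within 50 kb and 5 among the highest-scoring 10%. Above the tied score it was 33, but only 34 peaks remain there and the GREB1 cluster keeps 1. The number of windows with more strong peaks than the GREB1 window was 0 as tiled, 1 with shifted windows and 1 for stretches begun at each strong peak. The settings for these counts of strong peaks were chosen after seeing the data. Fewer peaks enter under a score limit by construction. No paired analysis was possible because the ERα and input libraries, 1 each, gave a joint list. Unknown depth limits which weak sites are listed.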
